A study of Mus musculus with 8 samples.

Results

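The MHC class II antigen presentation genes were followed in RNA sequencing of mouse pancreatic islets that carried or lacked the insulin-degrading enzyme gene, Ide. The set held 9 genes: H2-Aa, H2-Ab1, H2-Eb1, Cd74, Ciita, H2-DMa, H2-DMb1, H2-DMb2 and H2-Oa. They were chosen by name for their role in the pathway, with earlier results of these data known. All 9 were found among the 55487 Ensembl gene identifiers of the deposited tables. Of these 9 genes, 7 passed the filter on low counts and were among the 16266 genes tested, and H2-DMb2 and H2-Oa did not pass it.

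Hand-picked islets came from C57BL/6J mice, which received a diet with 60 kcal% fat for 2 weeks from 10 weeks of age. The comparison was of 3 Ide-/- samples with 5 Ide+/+ samples, so both groups shared the strain, the diet, its length and the age at its start. No group on another diet was analysed here, and the sources used here do not give how the Ide allele was made. The labels call the samples biological replicates without giving the number of animals behind each, so the p-values measure the spread between these samples, which may in part be technical.

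MHC class II molecules carry peptides from internalised proteins to the cell surface, where CD4+ T cells read them. The alpha and beta chains pair in the endoplasmic reticulum around the invariant chain, which is cut down by lysosomal proteases, and H2-DM then helps exchange its last fragment for a peptide. In islets this machinery is known mainly from resident macrophages and other leukocytes, and the genes of class II molecules and their chaperones answer to the coactivator encoded by Ciita.

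The libraries held 7143415 to 33371642 expected counts, and the 3 Ide-/- libraries were the shallowest. A set of 30 acinar genes took 22.4% to 38.9% of all counts in the Ide+/+ libraries and 0.676% to 1.46% in the Ide-/- libraries. These shares leave out 12 amylase and Reg genes, which were kept as a separate list. In CPM (TMM-scaled counts relative to the library total), those 12 genes summed to 154542 to 902818 in Ide+/+ and 1988 to 7831 in Ide-/-. The 30 acinar genes summed to 190173 to 960098 and 3282 to 9553 CPM. Ide itself was between 19.5 and 39.2 CPM in Ide+/+ and between 0.167 and 0.367 in Ide-/-, so it followed the labels in every library. All samples are labelled female. Only Ide+/+ replicate 1 had no Ddx3y counts, with 692 Xist counts, whereas the other 7 libraries had 503 to 2139 counts of the Y-linked gene Ddx3y and at most 11 of Xist. The 10 beta cell markers, insulin among them, summed to 35340 to 138301 CPM in Ide+/+ and 83657 to 106206 CPM in Ide-/-, and edgeR called none of the 10, with 1 at an unadjusted p under 0.05 (2 by DESeq2).

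Promoters of class II genes share an X box, bound by the RFX complex, and further downstream a Y box, bound by NF-Y, and Ciita docks on the factors held there. The stretches below come from the promoters of 5 of the 9 genes, and that of H2-DMb2 holds the Y box letters only. They are shown as the part of the locus through which the members are known to be controlled together. The promoters of H2-Ab1, Cd74 and Ciita were not examined. The letters searched were GNAAC, 25 to 35 bases, then ATTGG, on both strands. They were chosen after these sequences had been seen. Sequences are from RefSeq on GRCm38.p6, in windows from 250 bases before to 50 bases after each gene start, and are written on the gene's own strand. Capitals mark GNAAC and ATTGG.
H2-Aa, chr17:34287857-34287914, minus strand: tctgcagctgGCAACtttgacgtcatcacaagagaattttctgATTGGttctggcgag
H2-Eb1, chr17:34305766-34305822, plus strand: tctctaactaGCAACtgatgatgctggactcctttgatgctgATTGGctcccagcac
H2-DMb1, chr17:34153087-34153144, plus strand: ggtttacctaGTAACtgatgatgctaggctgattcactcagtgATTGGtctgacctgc
H2-Oa, chr17:34092293-34092350, plus strand: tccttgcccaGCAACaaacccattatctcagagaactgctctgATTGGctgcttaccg
H2-DMb2, chr17:34145116-34145173, plus strand: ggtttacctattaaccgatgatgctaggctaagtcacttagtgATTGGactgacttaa

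The pair of motifs was present in H2-Aa, H2-Eb1, H2-DMb1 and H2-Oa, 27 or 28 bases apart. ATTGG began 48 bases before the start of H2-Aa, 59 before that of H2-Eb1, 61 before that of H2-DMb1 and 43 before that of H2-Oa. H2-DMb2 held ATTGG, 90 bases before its start, without a match to GNAAC at the set distance. The windows of H2-DMa, which has 2 starts in the table, held no match to the pair. Over all 32851 promoters of the same length, 1.82% held the pair and 37.4% held ATTGG on either strand. All 5 stretches lie before the RefSeq gene start, although GENCODE M21 extends H2-DMb1, H2-DMb2 and H2-Oa further upstream, so that those of H2-DMb1 and H2-DMb2 fall inside, and that of H2-Oa partly inside, its gene spans. A match is a description of letters and not a binding site.

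Of the 7 tested members, 6 were lower in Ide-/- than in Ide+/+ islets and none was higher, by edgeR's quasi-likelihood test at an adjusted p under 0.05 after scaling by the trimmed mean of M-values (TMM). The 4 genes with the most counts fell most: Cd74, H2-Eb1, H2-Aa and H2-Ab1 had a mean 3.07 to 4.36 times as high in Ide+/+ as in Ide-/-. Groups did not overlap in CPM, with Ide-/- lower, for 5 of the 7 tested members and for 15.6% of all tested genes. The peptide exchange genes H2-DMb1 and H2-DMa fell less, and the difference in Ciita did not pass the threshold. All 7 had lower values at an unadjusted p under 0.05, and DESeq2 also called 6 lower and none higher. Among all 16266 genes, 10.6% were called lower and 10.4% higher. The median log2 fold change of the 7 members was -1.62, beside -0.01 over all tested genes. In bulk islets, fewer cells that express a gene and less RNA per cell cannot be told apart.

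**Figure D1:**
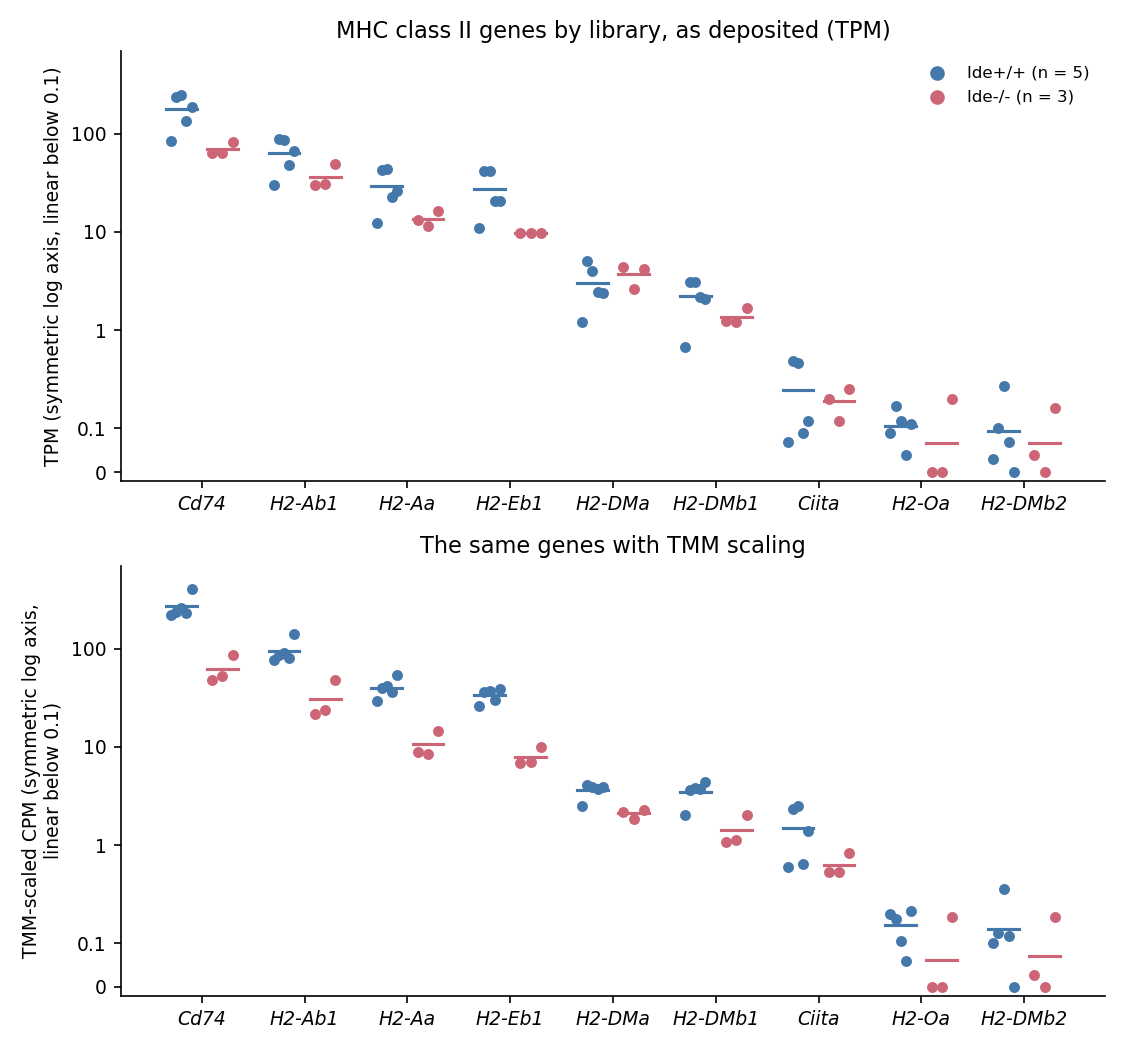
Levels of the 9 MHC class II genes in each of the 8 libraries, as TPM (a share of the library corrected for transcript length, upper panel) and as TMM-scaled CPM (lower panel), both on a symmetric log axis. Points are libraries, coloured by genotype, and the short bar is the group mean. In CPM, the Ide-/- points of Cd74, H2-Ab1, H2-Aa, H2-Eb1 and H2-DMa all lie below the Ide+/+ points, while in TPM this holds for Cd74 and H2-Eb1.

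H2-Aa encodes the alpha chain and H2-Ab1 the beta chain of I-A, the class II molecule that C57BL/6 cells display. H2-Aa (ENSMUSG00000036594) lies on the minus strand of chromosome 17 at 34282744 to 34287823 (GRCm38). It was at 29.2, 39.7, 42.1, 35.9 and 53.3 CPM in Ide+/+ replicates 1 to 5 and at 8.88, 8.42 and 14.6 CPM in Ide-/- replicates 1 to 3. Its highest Ide-/- library was at 14.6 CPM, below every Ide+/+ library. The mean was 40.0 ± 8.89 CPM (SD, n = 5) in Ide+/+ and 10.6 ± 3.43 CPM (n = 3) in Ide-/-. This gave a log2 fold change of -1.93 with a standard error of 0.27 (edgeR, adjusted p = 0.000928).

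H2-Ab1 (ENSMUSG00000073421, chromosome 17, 34257689 to 34269419, plus strand) was at 76.1, 86.3, 89.7, 79.6 and 140.6 CPM in Ide+/+. In Ide-/- it was at 21.4, 23.5 and 47.5 CPM. These groups also did not overlap, but replicate 5 of Ide+/+ and replicate 3 of Ide-/- each stood above the rest of their group. The means were 94.4 ± 26.3 and 30.8 ± 14.5 CPM, and the log2 fold change was -1.62 with a standard error of 0.32 (edgeR, adjusted p = 0.00598). Without Ide-/- replicate 3 it was -2.07.

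H2-Eb1 encodes the beta chain of I-E. C57BL/6 mice carry a haplotype whose E alpha gene is not expressed, so that this chain lacks its usual partner, and the reference lists that gene as a pseudogene, H2-Ea-ps. H2-Eb1 (ENSMUSG00000060586, chromosome 17, 34305867 to 34316674, plus strand) was at 26.1, 36.4, 37.4, 29.7 and 38.7 CPM in Ide+/+ and at 6.79, 7.04 and 9.99 CPM in Ide-/-. All 3 Ide-/- values were under 10 CPM and all 5 Ide+/+ values above 26. The log2 fold change was -2.10 with a standard error of 0.23 (edgeR, adjusted p = 0.000454), and the ratio of the Ide+/+ mean to the Ide-/- mean was 4.24. H2-Ea-ps had 0 counts in all 8 libraries, which allows up to 0.420 CPM of unscaled counts in the shallowest library and 0.0899 CPM in the deepest, counting error only.

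Cd74 encodes the invariant chain, the chaperone that fills the groove of new class II molecules and steers them to the lysosome. It lies outside the MHC, on chromosome 18 at 60803848 to 60812652 (GRCm38, plus strand, ENSMUSG00000024610). The 5 Ide+/+ libraries had 219, 238, 261, 233 and 409 CPM, and the 3 Ide-/- libraries had 48.0, 52.6 and 86.5 CPM. The lowest Ide+/+ library was more than 2 times as high as the highest Ide-/- library. Means were 272 ± 78.1 and 62.4 ± 21.04 CPM. The log2 fold change was -2.13 with a standard error of 0.33 (edgeR, adjusted p = 0.00155), the largest fall among the tested members under this scaling. Cd74, H2-Aa, H2-Eb1 and H2-Ab1 kept an adjusted p under 0.05 whichever of the 8 libraries was left out.

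H2-DMa and H2-DMb1 encode the chains of H2-DM, the lysosomal catalyst of peptide exchange. H2-DMa (ENSMUSG00000037649, chromosome 17, 34119541 to 34139101, plus strand) was at 2.51, 4.07, 3.87, 3.71 and 3.86 CPM in Ide+/+ and at 2.17, 1.83 and 2.29 CPM in Ide-/-. The groups did not overlap, but the lowest Ide+/+ library, replicate 1, was close to the Ide-/- libraries. H2-DMa thus had a log2 fold change of -0.80 with a standard error of 0.25 (edgeR, adjusted p = 0.0417). The call was lost when any library other than Ide+/+ replicate 1 was left out, with adjusted p of up to 0.168 over the 8 such fits.

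H2-DMb1 (ENSMUSG00000079547, chromosome 17, 34153072 to 34160230, plus strand) was at 2.00, 3.61, 3.80, 3.71 and 4.40 CPM in Ide+/+ and at 1.09, 1.14 and 2.02 CPM in Ide-/-. Here Ide-/- replicate 3 and Ide+/+ replicate 1 were almost equal, so the groups overlapped. The log2 fold change was -1.38 with a standard error of 0.33 (edgeR, adjusted p = 0.0137), and it missed the threshold when Ide-/- replicate 1 or 2 was left out, with an adjusted p of at most 0.0744. The neighbouring H2-DMb2 (ENSMUSG00000037548, 34143307 to 34151555, plus strand) is a near copy: their coding transcripts of 1404 and 1414 bases shared 88.5% of 1214 aligned bases. RSEM divides reads that fit both genes, so the division between them is uncertain.

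H2-DMb2 had 1, 5, 10, 2 and 0 counts in Ide+/+ and 1, 0 and 2 counts in Ide-/-. H2-Oa encodes the alpha chain of H2-O, the inhibitor of H2-DM found mainly in B cells. H2-Oa (ENSMUSG00000024334, chromosome 17, 34092340 to 34095234, plus strand) had 2, 7, 3, 1 and 2 counts in Ide+/+ and 0, 0 and 2 in Ide-/-. Neither gene could be compared at this depth: 3 counts stand for 0.172, 0.227 and 0.420 CPM of unscaled counts in the 3 Ide-/- libraries. When no filter was applied, the adjusted p was 0.336 for H2-DMb2 and 0.296 for H2-Oa (edgeR). Other genes of the locus were as scarce, with 41 counts of H2-Ob and 4 of H2-Eb2 over all 8 libraries together.

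Ciita (ENSMUSG00000022504, chromosome 16, 10480059 to 10528418, plus strand) is the coactivator that sets the output of class II genes. It was at 0.601, 2.34, 2.52, 0.648 and 1.39 CPM in Ide+/+ and at 0.529, 0.529 and 0.825 CPM in Ide-/-. The Ide+/+ libraries spanned more than a 4-fold range, and the highest Ide-/- library lay above the lowest 2 of them. In counts it was 6, 92, 71, 11 and 13 against 19, 13 and 9. The log2 fold change was -1.39 with a standard error of 0.53 (edgeR, adjusted p = 0.0796). Without Ide+/+ replicate 1, the library with the fewest Ciita counts and the only one without Ddx3y counts, the log2 fold change was -1.59 and the adjusted p was 0.0292. All 7 tested members were then called lower, and 13.3% of 16028 genes were. Ciita was not called in any other fit that left out a library, with an adjusted p of up to 0.225 (edgeR). Its highest counts were in Ide+/+ replicates 2 and 3, the most alike pair of libraries. Without replicate 2 its log2 fold change was -1.156 (edgeR, adjusted p = 0.153), and without replicate 3 it was -1.115 (adjusted p = 0.159).

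Per length, the order of the 9 genes by mean TPM over all libraries was Cd74, H2-Ab1, H2-Aa, H2-Eb1, H2-DMa, H2-DMb1, Ciita, H2-Oa and H2-DMb2. Cd74 was at 178 ± 67.7 TPM in Ide+/+ and 69.9 ± 10.8 TPM in Ide-/-, above H2-Ab1 at 64.0 ± 24.95 and 36.6 ± 10.8 TPM in each of the 8 libraries. H2-Aa was at 29.5 ± 13.3 TPM and H2-Eb1 at 27.2 ± 14.0 TPM in Ide+/+, close beside the spread between libraries. Within each of the 8 libraries H2-Aa was the higher of these genes. In Ide-/- they were at 13.7 ± 2.54 and 9.79 ± 0.03 TPM. H2-DMa was at 3.03 ± 1.52 TPM and H2-DMb1 at 2.22 ± 0.990 TPM in Ide+/+, and at 3.76 ± 0.963 and 1.37 ± 0.263 TPM in Ide-/-. H2-DMa was above H2-DMb1 in each of the 8 libraries. Ciita was above H2-DMb2 in every library, and above H2-Oa in all but Ide+/+ replicate 1. In Ide+/+ Ciita was at 0.246 ± 0.210 TPM, H2-Oa at 0.106 ± 0.047 TPM and H2-DMb2 at 0.094 ± 0.105 TPM. In Ide-/- the 3 were at 0.190 ± 0.066, 0.067 ± 0.115 and 0.067 ± 0.083 TPM.

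How far the members fell depended on how the libraries were scaled. On TPM, which is a share of each library, H2-Aa was at 12.3, 42.5, 43.5, 22.8 and 26.4 in Ide+/+ and at 13.2, 11.5 and 16.4 in Ide-/-. Ide+/+ replicate 1, which has the highest acinar share, then lay among the Ide-/- libraries. Cd74 was at 85.1, 234, 246, 136 and 187 TPM in Ide+/+ and at 63.0, 64.4 and 82.4 TPM in Ide-/-, with no overlap. H2-DMa was at 1.21, 5.10, 3.97, 2.46 and 2.40 TPM in Ide+/+ and at 4.40, 2.65 and 4.22 TPM in Ide-/-, so its mean was higher in Ide-/-.

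With limma on log2(TPM + 1), 3 of the 7 tested members were lower and none higher. They were Cd74 at -1.24 (adjusted p = 0.0069), H2-Eb1 at -1.23 (adjusted p = 0.0176) and H2-Aa at -0.94 (adjusted p = 0.0486). Among all genes, 2.53% were called lower on this scale, and the median gene was shifted by 0.50. H2-Ab1 stood at -0.73 and H2-DMa at 0.30, neither past the threshold. When only library totals were used, no member was called by edgeR, 1 was lower at an unadjusted p under 0.05, and 1.73% of all genes were called lower. The median gene was then shifted by 1.22, and H2-DMa was at 0.39 (edgeR, adjusted p = 0.541).

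Relative to the median gene, the classical chains and Cd74 kept a similar distance under both count scalings. This is close to fixed in advance, because both use the same counts and differ only by a factor per library, which moves all genes nearly alike. It is therefore no separate support for the calls. With library totals they lay at -2.11 for Cd74, -2.15 for H2-Eb1, -1.96 for H2-Aa and -1.63 for H2-Ab1, and with TMM at -2.12, -2.09, -1.92 and -1.61. H2-DMa lay 0.84 and 0.79 below the median gene. On log2(TPM + 1), which compresses low values, H2-DMa lay at -0.20 and Cd74 at -1.74 from the median gene. Of 15 secretory granule genes, which are made by the endocrine cells, edgeR called 5 higher and 0 lower in Ide-/- with TMM. Scaling by these 15 genes left 4 members lower, H2-Aa, H2-Ab1, H2-Eb1 and Cd74, and 5.53% of all genes lower. H2-DMb1 was at -1.32 and H2-DMa at -0.76 under that scaling, both short of the threshold.

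**Figure D2:**
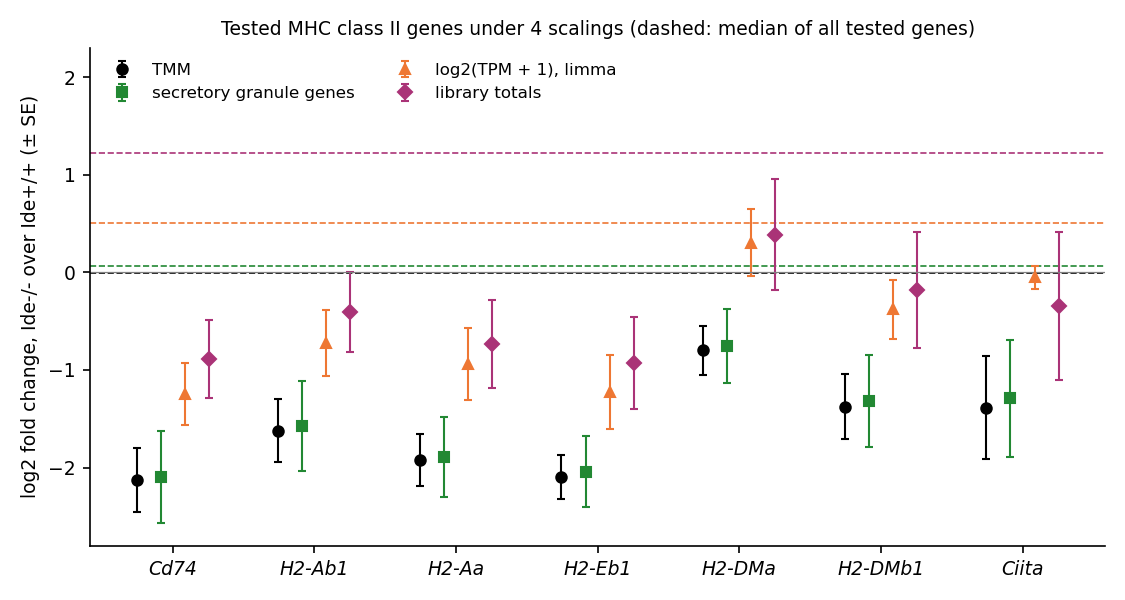
Log2 fold change (Ide-/- over Ide+/+) of the 7 tested members with its standard error, under TMM scaling, scaling by secretory granule genes, limma on log2(TPM + 1) and library totals alone. Each dashed line is the median of all tested genes under the scaling of its colour. H2-DMa changes sign between the scalings, while Cd74, H2-Eb1, H2-Aa and H2-Ab1 stay below both 0 and the matching median in all 4.

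The acinar share moved with genotype in all 8 libraries, and its part in these differences was not tested. It covers the 30 acinar genes only, without the separate list of amylase and Reg genes. When it was added as a covariate, none of the 7 members passed edgeR's threshold, though 6 were lower at an unadjusted p under 0.05. Over all genes, 11 were called lower and 2 higher. The log2 fold change was then -1.83 for Cd74 (edgeR, adjusted p = 0.294) and -2.65 for H2-Eb1 (adjusted p = 0.108). No Ide+/+ library had an acinar share near those of the Ide-/- libraries, so genotype and acinar share cannot be told apart within these samples.

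Genes for the factors that read the X and Y boxes showed another pattern. Of 7 such genes, all tested, none was called lower, also at an unadjusted p under 0.05, and edgeR and DESeq2 each called 2 higher. The count of higher genes was 6 with library totals, 4 on log2(TPM + 1) and 0 when the acinar share entered as a covariate. Among all 16266 tested genes, 8405, 5987 and 2 were called higher under these 3 settings, in that order. The median log2 fold change was 0.25. Rfx5, the DNA-binding subunit of the RFX complex, rose from 4.00 ± 0.4998 CPM in Ide+/+ to 7.17 ± 0.860 CPM in Ide-/-, a log2 fold change of 0.83 with a standard error of 0.20 (edgeR, adjusted p = 0.0131). Nfyc, a subunit of NF-Y, rose from 14.3 ± 2.03 to 24.7 ± 4.22 CPM, a log2 fold change of 0.79 with a standard error of 0.19 (adjusted p = 0.0125). Neither passed the threshold without Ide-/- replicate 3, where the adjusted p was 0.0614 for Rfx5 and 0.0639 for Nfyc (edgeR). With a replicate block it was 0.124 and 0.0772, but that block leaves Ide+/+ replicates 4 and 5 without a partner.

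Interferon gamma induces Ciita through its receptor and Jak kinases. Ifng itself had 0 counts in all 8 libraries, within the same limits as above. Of the other 6 genes of this list, 2 were called lower: the receptor chain Ifngr2, from 11.4 ± 1.89 to 5.61 ± 1.46 CPM (log2 fold change -0.99, edgeR adjusted p = 0.0117), and the kinase Jak1, from 56.4 ± 20.95 to 31.1 ± 2.26 CPM (-0.86, adjusted p = 0.0432). Scaling by secretory granule genes left neither called, and neither was called without Ide-/- replicate 3. With library totals none was lower and 3 others, Ifngr1, Jak2 and Irf1, were called higher, where 8405 of all 16266 tested genes were.

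Proteases and other processing genes of the class II route were lower together with the members. Of 10 such genes, all tested, 9 were called lower and none higher, and their median log2 fold change was -1.41. Ctss, the cathepsin known for the final cuts of the invariant chain, fell from 35.5 ± 11.6 to 6.53 ± 1.10 CPM, a log2 fold change of -2.45 with a standard error of 0.28 (edgeR, adjusted p = 0.00050). Ctsb (180 ± 55.7 to 63.6 ± 12.4 CPM), Ctsd (98.5 ± 30.0 to 35.7 ± 6.46 CPM) and Ctsl (92.2 ± 30.9 to 33.2 ± 4.57 CPM), broad lysosomal proteases, changed by -1.502, -1.46 and -1.47. March8, a ubiquitin ligase that removes class II molecules from the surface, was at 23.2 ± 3.33 and 24.2 ± 2.53 CPM and was not called. The count of lower genes was 4 with scaling by secretory granule genes, 3 with a replicate block and 1 (Ctss) on log2(TPM + 1). With library totals it was 1 (Ctss), and March8 was called higher, where 8405 of all 16266 tested genes were. Leaving out Ide-/- replicate 1 gave 4, and leaving out replicate 2 or replicate 3 of that group gave 5.

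MHC class I genes were less affected by count of calls, with 3 of 9 lower and none higher and a median log2 fold change of -0.43. They were H2-D1, a class I heavy chain whose reads can be shared with related genes, from 205 ± 26.4 to 106 ± 26.2 CPM, the peptide transporter subunit Tap2, from 15.8 ± 3.97 to 7.67 ± 1.31 CPM, and the loading factor Tapbp, from 69.3 ± 15.9 to 42.1 ± 3.07 CPM. The difference between the class I and class II genes was not tested. None of the 3 was called when Ide-/- replicate 2 or replicate 3 was left out. With library totals H2-K1, B2m and Psmb8 were called higher instead, where 8405 of all 16266 tested genes were. Of 5 costimulation genes, 4 were tested and 2 were called lower, Icosl at -1.71 (edgeR, adjusted p = 0.0496) and Cd274 at -0.86 (adjusted p = 0.0456), and none was called in 6 of the 8 fits that left out a library.

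**Figure D3:**
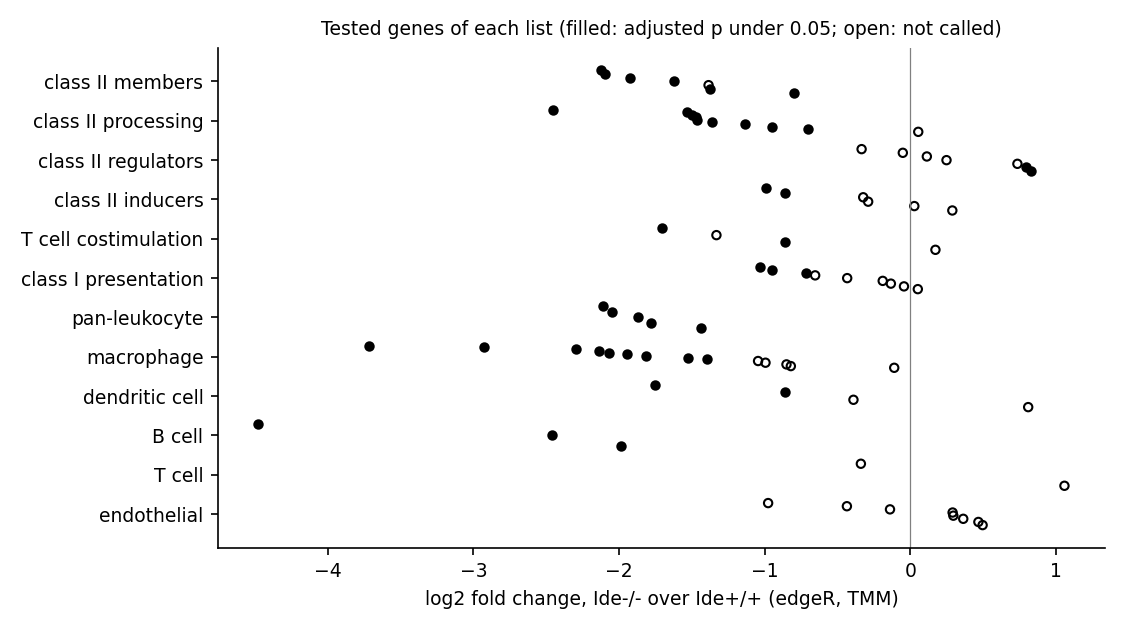
Log2 fold change (Ide-/- over Ide+/+, TMM scaling) of every tested gene in 12 gene lists, with filled points for genes past an adjusted p of 0.05 in edgeR's test and open points for the others. Class II members, processing genes and the macrophage and pan-leukocyte markers lie mostly below 0, and the endothelial markers on both sides of it.

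Markers of leukocytes moved in the same direction as the members. All 5 pan-leukocyte genes were called lower, with a median log2 fold change of -1.87, and their summed level was 20.1 to 30.1 CPM in Ide+/+ and 5.29 to 9.35 CPM in Ide-/-. Ptprc, which encodes CD45, was at -1.44 (edgeR, adjusted p = 0.00458) and Laptm5 at -2.05. Of 16 macrophage markers, 14 were tested and 9 were called lower, with sums of 68.2 to 154 CPM against 27.4 to 36.9 CPM. Adgre1, which encodes F4/80, was at -2.93, the chemokine receptor gene Cx3cr1 was at -3.715, and the complement genes C1qb and C1qc were at -2.14 and -1.94. With scaling by secretory granule genes, 3 of the pan-leukocyte and 7 of the macrophage genes were called lower. With library totals these counts were 0 and 2, and on log2(TPM + 1) they were 1 and 4.

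Markers of other cell types that the samples could hold differed in level and in the number called. B cell markers summed to 3.12 to 19.9 CPM in Ide+/+ and 1.56 to 1.73 CPM in Ide-/-, and 3 of the 9, Cd79a, Ighm and Igkc, were tested and called lower, whereas Ms4a1 had 9 counts over all libraries. The count of lower B cell genes was 1 with library totals, 0 on log2(TPM + 1) and 1 when any Ide-/- library was left out. Dendritic cell markers summed to 5.31 to 12.0 and 5.54 to 7.33 CPM, which overlapped, and 2 of the 4 tested of 9 were called lower, with Flt3 at 11 and Xcr1 at 10 counts in all. No dendritic cell gene was called lower with scaling by secretory granule genes, with a replicate block, with library totals or on log2(TPM + 1). Nor was any in 4 of the 8 fits that left out a library. Clec9a was called higher with library totals and on log2(TPM + 1), where 8405 and 5987 of all 16266 tested genes were. T cell markers summed to 1.24 to 2.68 and 1.28 to 1.74 CPM, 0 of the 2 tested of 7 were called, 4 were at 0 in every Ide-/- library and Cd8a was at 0 in all. Endothelial markers summed to 90.7 to 338 and 220 to 318 CPM, with 0 of 8 called by edgeR and 0 at an unadjusted p under 0.05, by edgeR or DESeq2. Of 10 duct markers, 8 were called lower, with sums of 1020 to 2735 and 290 to 313 CPM. The part of these cells in the class II differences was not tested.

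Ratios of counts within a library do not depend on scaling, and they were chosen after the values had been seen, so they carry no test. The summed counts of H2-Aa, H2-Ab1, H2-Eb1 and Cd74 per pan-leukocyte count were 14.8, 18.5, 21.4, 18.4 and 21.3 in Ide+/+ and 14.6, 17.3 and 17.0 in Ide-/-. The groups overlapped, with means of 18.9 ± 2.69 and 16.3 ± 1.46. Per macrophage count the Ide+/+ libraries had 5.14, 3.89, 4.16, 4.21 and 4.17, and the Ide-/- libraries 3.11, 2.73 and 4.29, which overlapped as well. Per endothelial count it ran from 1.19 to 3.86 in Ide+/+ libraries and from 0.363 to 0.499 in Ide-/- libraries, with no overlap. Thus the class II sum was low in Ide-/- beside endothelial RNA in every library, but not in every library beside leukocyte or macrophage RNA.

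The members did not keep fixed proportions among themselves. Cd74 counts per H2-Ab1 count were 2.88, 2.76, 2.91, 2.93 and 2.91 in Ide+/+ and 2.24, 2.24 and 1.82 in Ide-/-. All 3 Ide-/- libraries lay below the narrow Ide+/+ range. H2-Aa and H2-Eb1 per H2-Ab1 overlapped between the groups. H2-DMa counts per 100 H2-Ab1 counts were 3.29, 4.72, 4.32, 4.66 and 2.75 in Ide+/+ and 10.1, 7.80 and 4.83 in Ide-/-, so that all 3 Ide-/- libraries were higher, Ide-/- replicate 3 by a small margin over the highest Ide+/+ library. H2-DMa per 1000 pan-leukocyte counts ran from 106 to 193 in Ide+/+ and from 245 to 373 in Ide-/-, again without overlap. In Ide-/- this rests on 78, 45 and 25 H2-DMa counts over 209, 130 and 102 pan-leukocyte counts. How often ratios of other genes separate the groups was not examined. For H2-DMb1 per 100 H2-Ab1 the groups overlapped, at 2.64 to 4.66 and 4.25 to 5.07. For Ctss per H2-Ab1 the Ide+/+ libraries had 0.344 to 0.403 and the Ide-/- libraries 0.164 to 0.277, with no overlap.

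**Figure D4:**
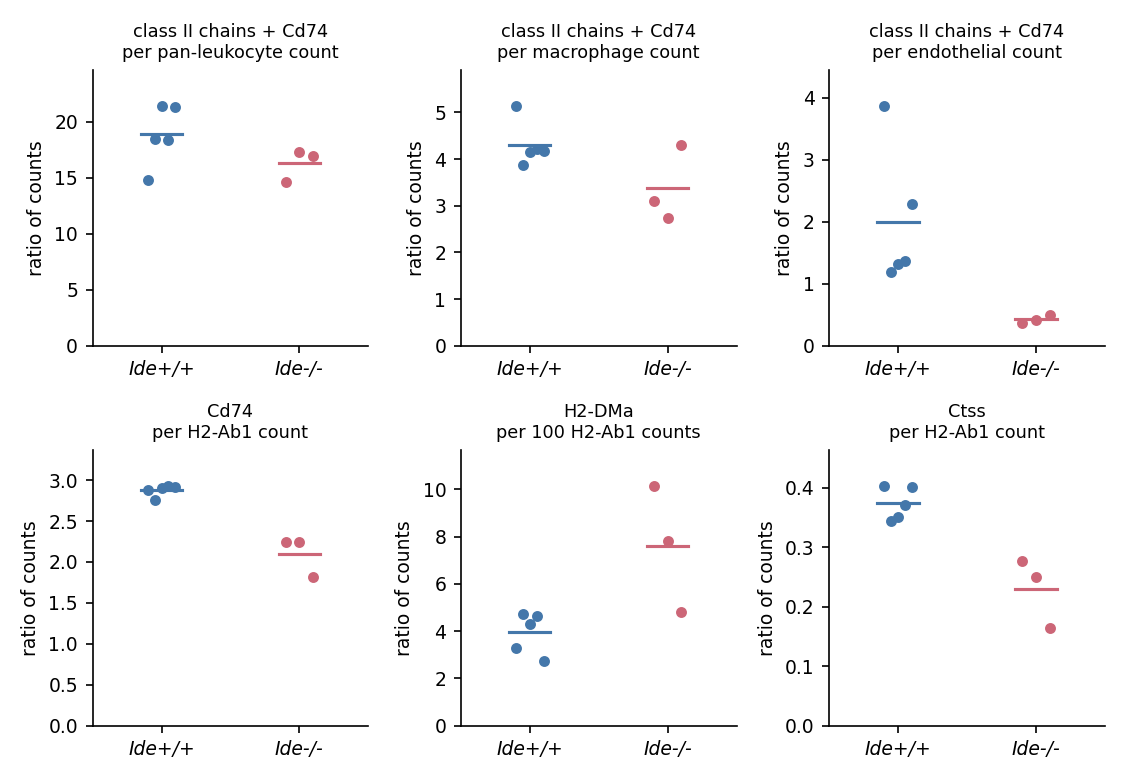
Within-library ratios of counts in the 5 Ide+/+ and 3 Ide-/- libraries, with points for libraries and a bar for the group mean. Class II counts per pan-leukocyte and per macrophage count overlap between the genotypes, while Cd74 per H2-Ab1 is lower and H2-DMa per 100 H2-Ab1 is higher in all 3 Ide-/- libraries.

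Within a genotype the abundant members varied together across libraries. After subtraction of the genotype mean, the mean log2 level of the tested members was highest in Ide+/+ replicate 5 (0.36) and lowest in Ide+/+ replicate 1 (-0.50). Within Ide-/- it was highest in replicate 3 (0.45) and at -0.23 and -0.22 in the other 2. H2-Ab1 and Cd74 had a Pearson correlation of 0.98 in these deviations over 8 libraries, and Ciita and Cd74 one of 0.36. The gene outside the set with the most similar deviations among 13258 genes was Aif1, a macrophage gene that encodes Iba1, with a correlation of 0.99. It was followed by Cnot6 (0.99), Myh11 (0.99), Gbp4, Cd72, Pan3, Sp100 and Inka1 (0.98 or more each). Aif1 itself was at 2.50 CPM in Ide+/+ and 1.31 CPM in Ide-/- on average, with a log2 fold change of -1.05 that did not pass the threshold (edgeR, adjusted p = 0.125). These correlations are descriptions over libraries that share depth and acinar share, picked as the highest of many.

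RSEM also gives each gene a mean transcript length, weighted by its isoforms. For Cd74 the 5 Ide+/+ libraries had 1217 to 1223 bases and the 3 Ide-/- libraries 1231 to 1242, which lies further from its coding transcript of 1224 bases and nearer to those of 1345 and 1410 bases. In the same order the range for H2-Ab1 was 1173 to 1193 and 1154 to 1166 bases, and for H2-Aa 1127 to 1134 and 1068 to 1121 bases, both shorter in Ide-/-. These 3 of the 9 genes had lengths without overlap between the groups. Such groups are found for 13.8% of the 12647 genes whose length varied, and no test was made.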

How the data were processed

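Islet RNA of 5 Ide+/+ and 3 Ide-/- samples was sequenced from 100 ng of RNA with a low-input kit from NEB, per the labels' protocols. STAR 2.7.1a and RSEM 1.3.1 were used with build GRCm38, per the submitters' processing notes, and the annotation release and strand setting are not given in the sources used here, so reads of overlapping antisense genes cannot be told apart. The authors deposited, per gene and sample, an RSEM expected count without normalization, a TPM value, which is a share of the library corrected for length, and a mean transcript length in bases.

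Groups were taken from the labels. Symbols and positions were those of GENCODE M21 (GRCm38), where 55227 of 55487 identifiers were found. Promoters came from RefSeq on GRCm38.p6, and those of 6 of the 9 genes were examined. H2-Ab1 and Ciita had no entry, and Cd74 was left out. Expected counts were rounded and tested with edgeR 4.0.16 (R 4.3.3): filterByExpr (count of at least 10, total of at least 15), TMM scaling, robust quasi-likelihood fit on genotype with all 8 samples, and Benjamini-Hochberg adjustment over 16266 genes with a threshold of 0.05. Standard errors are the log2 fold change divided by the root of F. CPM are TMM-scaled. TPM were tested with limma 3.58.1 on log2(TPM + 1), which understates changes of low genes. The edgeR step was tested on simulated counts that lacked the difference in acinar share between the groups, so that test does not cover it.

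In all, 17 alternatives were run: other scalings, DESeq2 1.42.0, no filter, acinar and related genes removed, acinar share as a covariate, a replicate block, limma, and each library left out. Named genes are the 9 members, Ide, up to 4 called genes of each list by smallest p (otherwise the 2 with the highest mean CPM), and the 8 genes most like the members in pattern; further list genes that are named were chosen after their values were seen. Members and lists were chosen with earlier results of these data known. No library was an exact copy of another, but Ide+/+ replicates 2 and 3 stood far closer than any other pair. Their chi-square per degree of freedom was 5.64, beside 106 or more for the other Ide+/+ pairs and 55.6 or more for the Ide-/- pairs. Whether these 2 share material is not given. Leaving out Ide+/+ replicate 2 or replicate 3 gave 5 members called lower. Same-numbered samples of the 2 groups had correlated deviations of 0.0485, 0.00918 and -0.0934, so the numbers were not taken as pairs. In the replicate block fit, Ide+/+ replicates 4 and 5 had no Ide-/- partner and added nothing to the genotype difference. Intervals and limits cover counting error only.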

Additional observations from a re-analysis of the deposited data

Results flagged for a closer look

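Values were examined for a library that stood apart from the other Ide+/+ libraries, and 5 of 41 sets of 5 values held such a library, where chance gives about 1 in 20. H2-Ab1 was at 140.6 CPM in Ide+/+ replicate 5, with the next highest library at 89.7 CPM. Cd74 was at 409 CPM in the same library, with the next at 261 CPM. H2-DMa was at 2.51 CPM in Ide+/+ replicate 1, below the next lowest at 3.71 CPM. The summed counts of the class II chains and Cd74 per macrophage count were 5.14 in Ide+/+ replicate 1, with the next highest library at 4.21. Cd74 per H2-Ab1 count was 2.76 in Ide+/+ replicate 2, below the next lowest at 2.88.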

How the results depend on the processing

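Of the 17 alternatives, 14 left a count of members called lower of 4 to 7, within 1.5 times of the 6 reported. The count was 0 with library totals, 0 with the acinar share as a covariate and 3 with limma on log2(TPM + 1), where fold changes are compressed. It ranged from 4 to 7 when each library was left out in turn, the lowest being without Ide-/- replicate 1 or Ide-/- replicate 2 and the highest without Ide+/+ replicate 1. No member was called higher in any of the 17, so that count ranged from 0 to 0. With the replicate block 4 members were lower and 0 higher. H2-DMa changed sign with library totals (0.39) and on log2(TPM + 1) (0.30), and its call was lost in 11 other alternatives. H2-DMb1 lost its call in 7 of the 17 and Ciita gained one in 1.

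Over all genes, calls higher and lower were 1699 and 1727 in the reported fit, 8405 and 281 with library totals, 5987 and 412 on log2(TPM + 1), 803 and 899 with granule scaling, 465 and 706 with the replicate block, and 2 and 11 with the covariate. They were 993 and 1101 without Ide+/+ replicate 4, 864 and 971, 785 and 809, and 694 and 853 without Ide-/- replicates 1, 2 and 3. The cause of these shifts was not tested. H2-DMb2 and H2-Oa are limited by depth, with at most 10 and 7 counts in any library, and Ciita had 6 to 92.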
